A study of Arabidopsis thaliana with 12 samples.

Results

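RD29A, RD29B, KIN1, KIN2, RD20, RD22, COR413-PM1, COR414-TM1, ERD7 and ERD15 are 10 Arabidopsis genes named for their response to drying or cold, and they were followed here in seedlings with and without an induced BRC1 transcription factor. They were chosen by gene identifier from a list of dehydration-response genes and are 10 of the 22028 genes listed in at least 1 RNA library. All 10 passed the filter on low values, which left 21038 genes for testing. RNA came from 3 libraries of the BRC1 induced line (genotype label GFP:BRC1ind), in which estradiol switches on a fusion of green fluorescent protein with BRC1. The comparison libraries, also 3, came from the brc1-2 knock-out. Both groups were whole seedlings aged 10 days that were given 10 uM estradiol and collected 5 hours after it. The groups differ in genotype label, the background that carries the transgene is not given in the sources used here, no uninduced seedlings of the line are among the samples, and nothing in the labels says whether the libraries came from separate cultures, so that p-values measure the spread between these samples, which may be technical. Binding was measured by anti-GFP chromatin immunoprecipitation (ChIP-seq) in the induced line.

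Plants that lose water make the hormone abscisic acid (ABA), which releases SnRK2 kinases to activate bZIP factors of the ABF group. These bind ABA-responsive elements in promoters such as those of RD29B, RD20 and RD29A. A second route, through DREB2 factors in drought and CBF factors in cold, acts on the dehydration-responsive element, which the RD29A promoter also holds. Its known targets include genes for small hydrophilic or membrane proteins linked to protection of cells against water loss and freezing. BRC1 (BRANCHED1), a TCP transcription factor, holds axillary buds dormant, and the libraries bear on the question of which genes change with it and carry its binding.

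The labels were checked first. BRC1 had 3370, 3421 and 3625 FPKM (fragments scaled by transcript length and library size) in induced libraries 1, 2 and 3, against 1.34, 1.66 and 2.2 FPKM in brc1-2 libraries 1, 2 and 3. Fragment numbers derived from the deposited confidence bounds came to between 33176994 and 53385759 per library. The 4 markers of green tissue were listed in every library, with summed levels of 16235 to 18552 FPKM in the induced libraries and 13930 to 21111 FPKM in brc1-2. The 5 root markers summed to between 28.9 and 33.3 FPKM in the induced libraries and between 83.4 and 131 FPKM in brc1-2, and 3 of them (EXPA7, PRP3 and CASP1) fell. In whole seedlings, fewer cells of a type and less RNA per cell cannot be told apart. The part of the root difference in the results that follow was not tested. Among brc1-2 libraries, library 1 stood apart for several ABA-responsive genes, and results that rest on it are given with and without it.

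Of the 10 genes, 5 rose in the induced line (RD29A, RD29B, KIN2, RD20 and COR413-PM1) and 2 fell (COR414-TM1 and ERD15), while KIN1, RD22 and ERD7 did not pass the test. The test was limma on log2(FPKM + 1), with p-values adjusted by the method of Benjamini and Hochberg over all 21038 genes and a threshold of 0.05. Over all tested genes 7.37% were called higher and 8.86% lower, 16.2% in all. The median log2 fold change of the 10 genes was 0.80, and that of all tested genes 0.04. The 10 genes were chosen with earlier results of these data known. Their contrast with all tested genes, here and below, is therefore a description and not independent support. The FPKM values of the groups did not overlap in 7 of the 10 genes, 5 of them higher and 2 lower in the induced line. Over all tested genes the share without overlap was 38.9%, with 20.8% higher and 18.1% lower. For each of these 7 a two-sided exact permutation test of 3 libraries against 3 gave p = 0.1, the smallest p this design allows.

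**Figure D1:**
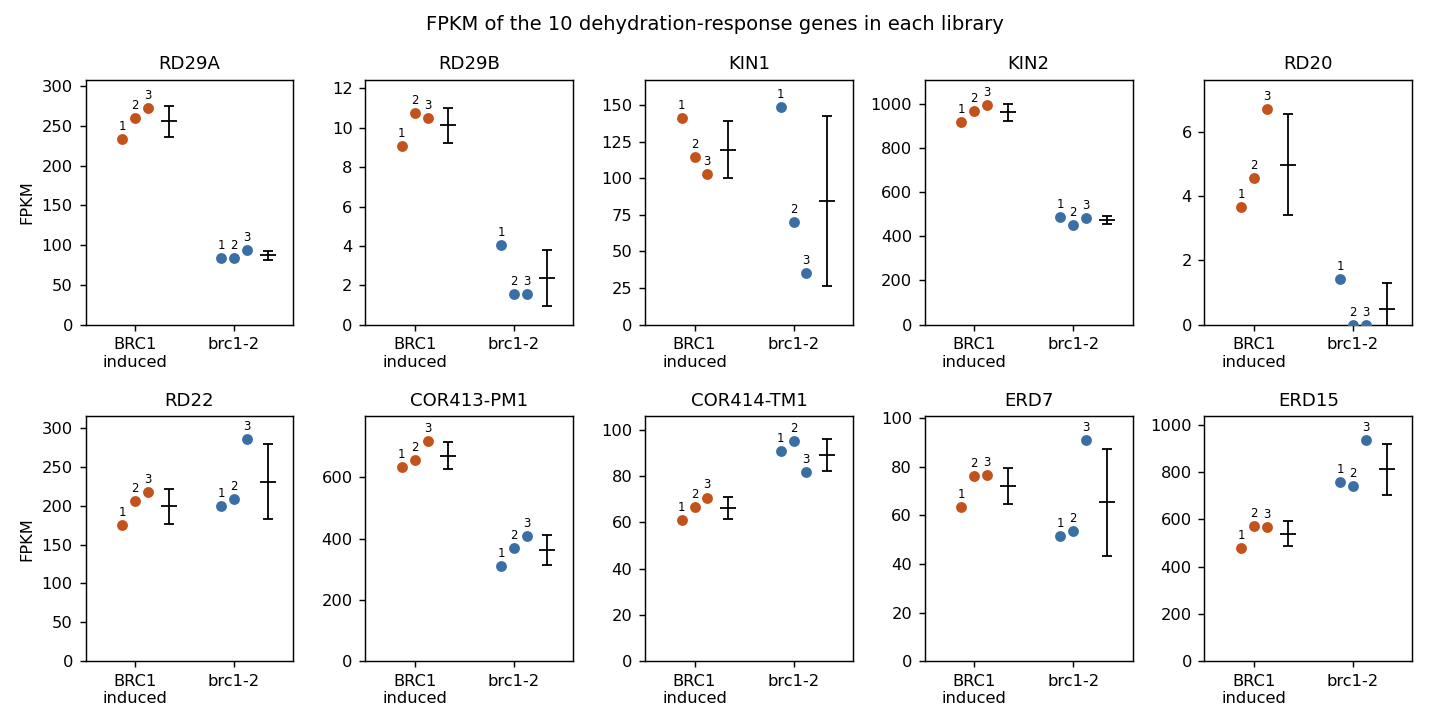
FPKM of each gene (vertical axes, linear and from 0) in BRC1 induced libraries (orange) and brc1-2 libraries (blue), with the library number above each point and the mean ± SD of the 3 libraries as a black bar beside them (for RD20 in brc1-2 the bar is clipped at 0). RD29A, RD29B, KIN2, RD20 and COR413-PM1 lie higher in every induced library, COR414-TM1 and ERD15 lie lower, and KIN1, RD22 and ERD7 overlap between groups.

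RD29A and RD29B are neighbours on chromosome 5 that encode related hydrophilic proteins, and their promoters are the standard reporters of drought, cold and ABA responses. RD29A (AT5G52310, LTI78 in the symbol table) had 234, 260 and 273 FPKM in induced libraries 1, 2 and 3, against 84.3, 84.2 and 93.9 FPKM in brc1-2 libraries 1, 2 and 3. All induced libraries lay far above all brc1-2 libraries. The means were 255 ± 19.9 and 87.4 ± 5.6 FPKM (SD, n = 3 each), a ratio of 2.92 and a log2 fold change of 1.53 (SE 0.09, limma adjusted p = 0.00056). Across the 17 other fits tried its log2 value stayed between 1.49 and 1.6, though some of these fits could not move it.

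RD29B (AT5G52300, LTI65 in the symbol table), whose induction depends mainly on ABA, was a much less abundant transcript. It had 9.09, 10.8 and 10.5 FPKM in the induced libraries, against 4.04, 1.56 and 1.54 FPKM in brc1-2. The groups did not overlap, and brc1-2 library 1 lay above the other brc1-2 libraries. The fit gave a log2 fold change of 1.79 (SE 0.28, limma adjusted p = 0.0113), and of 2.12 without brc1-2 library 1 (limma adjusted p = 0.00273). The call was lost without induced library 2, with a log2 value of 1.75 (limma adjusted p = 0.0502).

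The depth behind the RD29B values was uneven. In the induced libraries they rested on 609, 676 and 1053 derived fragments, over assembled pieces of 2055 to 2091 bp. In brc1-2 library 1 there were 403 fragments over 2042 bp, but in brc1-2 libraries 2 and 3 only 11 and 10 fragments over 411 and 348 bp. FPKM divides by the assembled length, so the low brc1-2 values describe a short stretch of the transcript. Scaled to a library of 1000000 derived fragments, RD29B had 17.1, 20.0 and 20.0 fragments in induced libraries, against 7.55, 0.332 and 0.221 fragments in brc1-2. A voom fit on the derived fragments accordingly gave a larger log2 fold change of 3.89 (limma adjusted p = 0.0254).

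The ratio of RD29A to RD29B, computed within each library, was 25.7, 24.1 and 26.0 in induced libraries, against 20.9, 53.9 and 60.9 in brc1-2. The induced libraries were close to each other, and brc1-2 library 1 lay beside them rather than with brc1-2 libraries 2 and 3. In brc1-2 libraries 2 and 3, however, RD29B rested on 11 and 10 derived fragments over pieces of 411 and 348 bp. The ratios of these libraries, and the differences that follow, therefore depend on assembled length. They may not measure the balance of the pair. The mean log2 ratio differed by -0.70, within the spread of brc1-2 (two-sided exact permutation test, p = 0.4). Without brc1-2 library 1 the difference was -1.18 and the groups did not overlap (exact permutation p = 0.2). With 2 libraries left in a group, this test cannot give a smaller p than 0.2.

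KIN1 and KIN2 form a second tandem pair on chromosome 5 and encode small alanine-rich proteins, known for induction by cold and ABA. KIN2 (AT5G15970, also COR6.6) was the most abundant of the 10 genes in the induced line. It had 918, 966 and 994 FPKM in induced libraries, against 485, 452 and 481 FPKM in brc1-2. The libraries of each group lay close together, and the groups were far apart. The means of 959 ± 38.8 and 473 ± 17.9 FPKM (SD, n = 3 each) gave a log2 fold change of 1.02 (SE 0.08, limma adjusted p = 0.00162). Its values were 0.92 to 1.05 across the other fits tried, some of which could not move it.

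KIN1 (AT5G15960) had 141, 114 and 103 FPKM in induced libraries and 149, 69.9 and 35.2 FPKM in brc1-2. The groups overlapped because brc1-2 library 1 held the highest value of all 6 libraries. The log2 fold change of 0.72 had a 95% interval of -0.5 to 1.93 (SE 0.5, limma adjusted p = 0.383), which holds both no change and a change larger than that of KIN2. It was 1.24 without brc1-2 library 1 (limma adjusted p = 0.0698) and 0.21 without brc1-2 library 3 (limma adjusted p = 0.732). The KIN1 piece was also longest in brc1-2 library 1, at 494 bp, against 378 to 414 bp in the other libraries.

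Because the KIN1 and KIN2 transcripts are near-identical, reads may have been divided between them, and the split is uncertain. KIN1 amounted to 0.154, 0.118 and 0.104 of KIN2 in induced libraries, against 0.306, 0.154 and 0.0732 in brc1-2. These ratios overlapped, and the mean log2 ratio differed by -0.29 (exact permutation p = 0.7), or by 0.22 without brc1-2 library 1. Added together, the pair had 1059, 1081 and 1097 FPKM in induced libraries, against 634, 522 and 516 FPKM in brc1-2. The sum depends less on how reads were divided than either gene alone, but not wholly, since FPKM divides by assembled lengths that differ between them (378 to 494 bp for KIN1, 476 to 480 bp for KIN2). It rose by a log2 value of 0.96 (SE 0.11, limma adjusted p = 0.00442).

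RD20 (AT2G33380, also CLO3) encodes a caleosin, a calcium-binding protein of lipid droplets with peroxygenase activity. It had the lowest mean level of the 10 genes in both groups, with 3.66, 4.58 and 6.71 FPKM in induced libraries and 1.43, 0 and 0 FPKM in brc1-2. The 2 zeros mean that no piece was listed. The induced values rested on 88, 114 and 232 derived fragments, and that of brc1-2 library 1 on 52. The induced libraries were all higher, by a log2 fold change of 2.12 (SE 0.42, limma adjusted p = 0.0225). That value depends strongly on the pseudocount: it was the largest of the 10 genes at 1, and at a pseudocount of 5 it was 0.87 (limma adjusted p = 0.0171), below RD29A, RD29B, KIN2 and COR413-PM1. Both unlisted libraries were then set to 10 fragments, about the fewest that any listed piece had. At the FPKM per fragment of brc1-2 library 1, from a piece of 873 bp, this equals 0.442 and 0.338 FPKM. The induced mean was then 6.77 times the brc1-2 mean. Pieces with so few fragments can be shorter and have a higher FPKM, which would make this ratio smaller. RD29B in brc1-2 libraries 2 and 3 had 1.56 and 1.54 FPKM from 11 and 10 fragments over 411 and 348 bp. In 5 of the 6 fits with 1 library missing, all but that without brc1-2 library 1, RD20 was no longer called (log2 values of 1.91 to 2.29, limma adjusted p from 0.0584 to 0.078). It was also lost at a pseudocount of 0.1 and by voom on derived fragments.

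COR413-PM1 and COR414-TM1 belong to 1 family of cold-regulated membrane proteins, the first named for the plasma membrane and the other placed in chloroplast membranes. They moved in opposite directions. COR413-PM1 (AT2G15970) had 633, 656 and 718 FPKM in induced libraries, against 309, 370 and 409 FPKM in brc1-2. Every induced library lay above every brc1-2 library, with means of 669 ± 44.0 and 363 ± 50.1 FPKM (SD, n = 3 each). COR413-PM1 rose by a log2 value of 0.89 (SE 0.13, limma adjusted p = 0.00767), and the call held with each library left out in turn (limma adjusted p of 0.0353 or less).

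COR414-TM1 (AT1G29395, COR413IM1 in the symbol table) had 61.0, 66.8 and 70.7 FPKM in induced libraries, against 90.6, 95.3 and 81.5 FPKM in brc1-2. The induced libraries were the lower ones, with no overlap. The log2 fold change of -0.42 (SE 0.09, limma adjusted p = 0.0266) was the smallest of those called. COR414-TM1 was no longer called in 5 of the 6 fits with 1 library missing, all but that without brc1-2 library 3 (log2 values of -0.47 to -0.37, limma adjusted p from 0.0515 to 0.0969). The ratio of COR413-PM1 to COR414-TM1, chosen after both had been seen, was 10.4, 9.82 and 10.2 in induced libraries, against 3.41, 3.88 and 5.01 in brc1-2.

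Of the 4 other listed genes of the family, 1 passed the test. COR413-PM2 (AT3G50830), the second gene named for the plasma membrane, rose to 70.5 ± 3.06 FPKM in the induced line, against 44.6 ± 6.13 FPKM in brc1-2 (SD, n = 3 each; log2 fold change 0.65, limma adjusted p = 0.0119), a call that was lost without induced library 2 (log2 value 0.65, limma adjusted p = 0.0511). COR314-TM2 (AT1G29390), the neighbour of COR414-TM1, had 63.5 ± 1.45 and 72.2 ± 1.64 FPKM and did not pass the test (log2 fold change -0.18, 95% interval -0.32 to -0.05, limma adjusted p = 0.0762). AT2G23680 and AT4G37220 had log2 fold changes of -0.52 (limma adjusted p = 0.217) and 0.42 (limma adjusted p = 0.598).

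ERD15 (AT2G41430) encodes a small acidic protein that binds poly(A)-binding proteins and is known to dampen ABA responses. It was the most abundant of the 10 genes in brc1-2. It had 481, 573 and 566 FPKM in induced libraries, against 757, 743 and 936 FPKM in brc1-2. No induced library reached the lowest brc1-2 library, with a log2 fold change of -0.58 (SE 0.13, limma adjusted p = 0.0343). ERD15 was no longer called in 5 of the 6 fits with 1 library missing, all but that without brc1-2 library 3 (log2 values of -0.64 to -0.50, limma adjusted p from 0.0633 to 0.122). It was also lost with the libraries scaled to a common median (limma adjusted p = 0.052). The related gene AT4G14270 had a log2 fold change of -0.43 with no overlap between groups and did not pass the test (limma adjusted p = 0.0502), though it did in 7 of the 17 other fits.

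RD22 (AT5G25610) encodes a BURP-domain protein whose promoter is bound by MYC2 and MYB2 during drought. It had 174, 206 and 217 FPKM in induced libraries and 199, 208 and 286 FPKM in brc1-2. The groups overlapped, and the log2 fold change of -0.20 had a 95% interval of -0.6 to 0.2 (limma adjusted p = 0.46). ERD7 (AT2G17840), a protein of the senescence and dehydration domain family, had 63.3, 76.3 and 76.4 FPKM in induced libraries and 51.7, 53.5 and 90.8 FPKM in brc1-2. Its highest value was that of brc1-2 library 3, and its log2 fold change of 0.18 had a 95% interval of -0.38 to 0.74 (limma adjusted p = 0.634). Without brc1-2 library 3 the log2 fold change of ERD7 was 0.44 (limma adjusted p = 0.0545). A rise as large as that of RD29A or KIN2 lies outside both intervals.

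**Figure D2:**
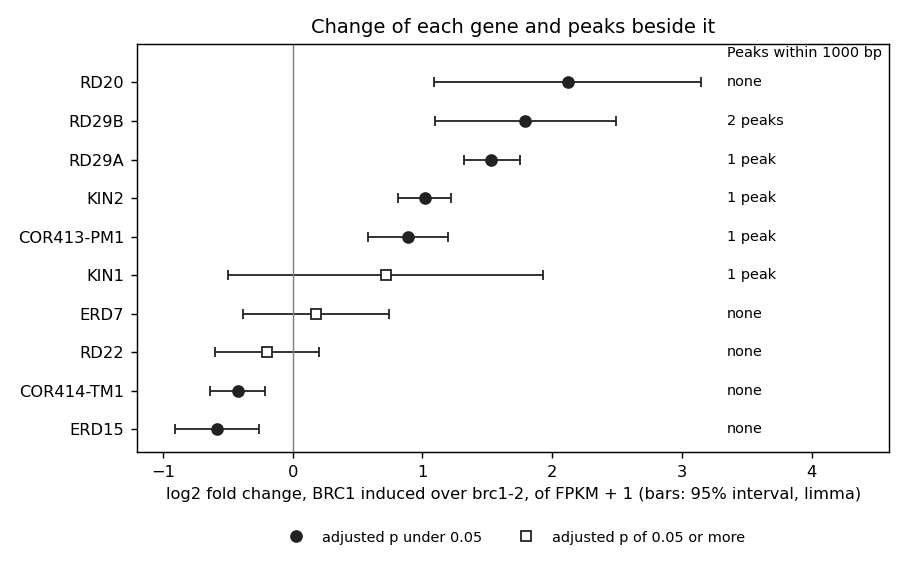
Log2 fold change of FPKM + 1, induced over brc1-2 (horizontal axis), for each gene with its 95% interval from limma. Filled circles passed the adjusted p threshold of 0.05, open squares did not, and the number of deposited peaks within 1000 bp of each locus stands at the right. At this pseudocount of 1 RD20 has the largest value (2.12, against 0.87 at a pseudocount of 5) and no peak, while RD29B, RD29A, KIN2 and COR413-PM1, at 0.89 to 1.79, each have at least 1.

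The order of levels differed between the groups. In the induced line KIN2 (959 FPKM) stood first, then COR413-PM1 (669), ERD15 (540), RD29A (255), RD22 (199), KIN1 (119), ERD7 (72.0), COR414-TM1 (66.2), RD29B (10.1) and RD20 (4.98), all as mean FPKM. ERD7 and COR414-TM1 overlapped there, and no other neighbours in the order did. In brc1-2 the order of mean FPKM was ERD15 (812), KIN2 (473), COR413-PM1 (363), RD22 (231), COR414-TM1 (89.1), RD29A (87.4), KIN1 (84.6), ERD7 (65.3), RD29B (2.38) and RD20 (0.476). There COR414-TM1, RD29A, KIN1 and ERD7 overlapped each other, while the first 4 did not overlap their neighbours in the order. RD29A exceeded 96.4% of tested genes in the induced line and 89.6% in brc1-2, and RD29B exceeded 40.6% in the induced line and 7.29% in brc1-2.

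The brc1-2 libraries differed among themselves in a way that touched some of the 10 genes and not others. Library 1 was the highest of the brc1-2 libraries for RD29B, RD20, KIN1 and KIN2, at 2.6 times the mean of libraries 2 and 3 for RD29B, 2.83 times for KIN1 and 1.04 times for KIN2. Among 20884 genes with this ratio, 2.3% had a value of at least 2. RD20, unlisted in libraries 2 and 3, had no such ratio. For RD29B the ratio depends on assembled length. Scaled to 1000000 derived fragments, RD29B had 7.55 fragments in library 1, against 0.332 and 0.221 in libraries 2 and 3. RAB18, an ABA-responsive dehydrin, had 8.95, 9.33 and 10.2 FPKM in induced libraries and 39.6, 3.05 and 3.4 FPKM in brc1-2. AT3G02480, a relative of the KIN genes, had 134, 129 and 128 FPKM in induced libraries and 151, 58.5 and 34.5 FPKM in brc1-2. RAB18 and AT3G02480 were chosen for this description after their values were seen. ERD7, RD22, ERD15, COR413-PM1 and RD29A were instead highest in brc1-2 library 3. What set the libraries apart was not tested.

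**Figure D3:**
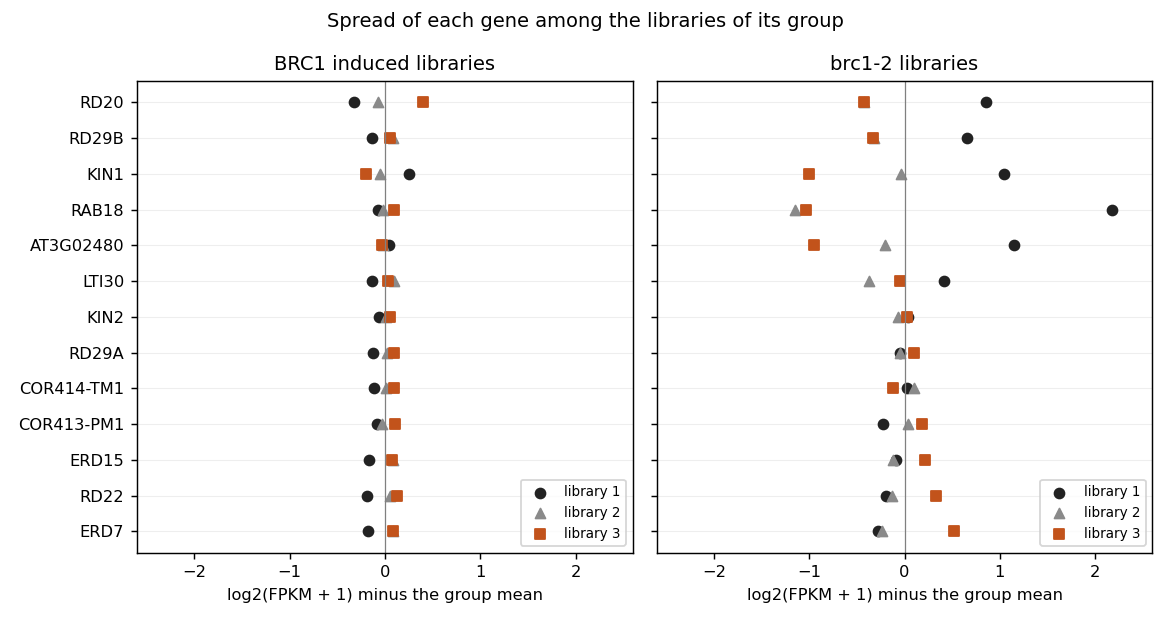
Difference of log2(FPKM + 1) from the mean of its group (horizontal axis) in each library, for induced libraries (left) and brc1-2 libraries (right). RD20, RD29B, KIN1, RAB18 and AT3G02480 are highest in brc1-2 library 1, ERD7 and RD22 in brc1-2 library 3, and in the induced line RD29B, KIN1 and ERD7 spread less than in brc1-2.

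Without brc1-2 library 1, the same 5 of the 10 genes were called higher and none lower. Of the 20706 genes tested in that fit, 1203 were called higher and 1288 lower. Some other genes changed their call with that library. Of the 4 other cold-regulated and ABA-responsive genes listed (COR15A, COR15B, RAB18 and LTI30), with all libraries, COR15A alone rose, to 530 ± 63.6 FPKM in the induced line, against 204 ± 6.48 FPKM in brc1-2 (SD, n = 3 each; log2 fold change 1.37, limma adjusted p = 0.00136). Without brc1-2 library 1 all 4 were called higher, COR15A with a log2 fold change of 1.38 (limma adjusted p = 0.00675), RAB18 with a log2 fold change of 1.31 (limma adjusted p = 0.00514), LTI30 with 0.79 (limma adjusted p = 0.0242) and COR15B with 0.60 (limma adjusted p = 0.0158). Library 1 was the highest brc1-2 library for RAB18, LTI30 and COR15B, at 12.3, 1.54 and 1.47 times the mean of libraries 2 and 3. Leaving it out therefore had to raise their log2 values, and these calls are a description, not independent support. The median over the 4 with all libraries was 0.50, against 0.04 over all tested genes, of which 7.37% were called higher. AT3G02480 had a log2 fold change of 0.94 with all libraries (limma adjusted p = 0.27), and was called higher without brc1-2 library 1 at 1.51 (limma adjusted p = 0.0186). Library 1 was its highest brc1-2 library too, at 3.25 times the mean of libraries 2 and 3, so the same limit holds.

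Other genes that carry RD or ERD names did not move as a block. Of 16 listed and tested, 3 rose, 2 fell and 11 did not pass the test, with a median log2 fold change of -0.14. The shares over all tested genes were 7.37% higher and 8.86% lower. The dehydrin ERD10 rose to 597 ± 71.6 FPKM in the induced line, against 166 ± 3.71 FPKM in brc1-2 (log2 fold change 1.83, limma adjusted p = 0.000528). RD17, the dehydrin also called COR47, rose to 1198 ± 67.2 FPKM, above any of the 10 genes, against 463 ± 66.5 FPKM in brc1-2 (log2 fold change 1.38, limma adjusted p = 0.00232). ERD9, a glutathione transferase, had 119 ± 5.92 and 46.7 ± 21.3 FPKM (log2 fold change 1.42, limma adjusted p = 0.0241), and it was called in 1 of the 6 fits with 1 library missing, that without brc1-2 library 3 (log2 values in the others of 1.23 to 1.45). ERD5, a proline dehydrogenase, fell to 55.0 ± 5.85 FPKM in the induced line, against 124 ± 20.2 FPKM in brc1-2 (log2 fold change -1.15, limma adjusted p = 0.0049). Each mean ± SD here is over 3 libraries.

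Among 21 sequence relatives of the 10 genes, 15 were tested. Beside the 7.37% called higher and 8.86% called lower over all tested genes, 2 of these 15 relatives rose and none fell. Their median log2 fold change was -0.05. In 9 of the 17 other fits 1 or 2 of them were called lower, and without brc1-2 library 1 the number called higher was 3. COR413-PM2 was one of the 2 that rose, and PG2 (AT1G70370), a BURP-domain relative of RD22, the other, with 81.0 ± 4.01 FPKM in the induced line and 44.4 ± 6.08 FPKM in brc1-2 (log2 fold change 0.86, limma adjusted p = 0.00595). Of the 6 caleosin relatives of RD20 in the list, CLO4 alone was listed in any library, with a log2 fold change of -0.05 (limma adjusted p = 0.803). Its level was 13.8 to 16.9 FPKM in induced libraries and 13.6 to 17.5 FPKM in brc1-2.

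Of 11 factors known to act on the promoters of RD29A, RD29B, RD20 or RD22, 10 were tested. In this list 3 rose and none fell, with a median log2 fold change of 0.38. The shares called higher and lower over all tested genes were 7.37% and 8.86%. ABF3, a bZIP factor that binds ABA-responsive elements, rose to 52.8 ± 3.16 FPKM in the induced line, against 13.9 ± 0.918 FPKM in brc1-2 (SD, n = 3 each), a log2 fold change of 1.85 (limma adjusted p = 0.000247). CBF2 had 4.98, 4.67 and 5.38 FPKM in induced libraries and 1.78, 0 and 1.38 FPKM in brc1-2 (log2 fold change 1.68, limma adjusted p = 0.0398). DREB2B had a log2 fold change of 0.49 (limma adjusted p = 0.0352), a call that was lost in each of the 6 fits with 1 library missing (log2 values of 0.45 to 0.54). CBF2 was no longer called in 4 of these fits, all but those without brc1-2 library 1 or 2 (log2 values of 1.63 to 1.85), and also not at a pseudocount of 0.1 (log2 value 2.97, limma adjusted p = 0.144). With the replicate number as a block, CBF2 (limma adjusted p = 0.0509) and DREB2B (limma adjusted p = 0.0838) were not called either. MYC2 had 7.37, 9.34 and 8.08 FPKM in induced libraries and 12.5, 9.68 and 12.8 FPKM in brc1-2 (log2 fold change -0.45, limma adjusted p = 0.079), and MYB2 was not listed in any library. MYC2 passed the threshold as lower without brc1-2 library 2 (log2 value -0.56, limma adjusted p = 0.0469) and by voom (log2 value -0.54, limma adjusted p = 0.0323).

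BRC1 peaks lay beside 5 of the 10 genes, namely RD29A, RD29B, KIN1, KIN2 and COR413-PM1. A gene was counted when any base of a deposited peak lay within 1000 bp of its locus, which held for 17.7% of tested genes and 13.1% of all 32883 annotated genes on chromosomes 1 to 5. Among all genes called higher the share was 47.5%, and among the other tested genes 15.3%. Of the 5 genes that rose, 4 had a peak, and RD20 had none. Of the 5 that did not rise, KIN1 alone had one.

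In 4 of these genes a peak ran across the lower-coordinate end of the locus, which held for either end in 6.12% of tested genes and in 26.2% of those called higher. The tables give no strand, so these ends are not assigned to the start or the stop of transcription. The peak of RD29A, at chr5:21240447-21240944 (TAIR10, the build named in the submitters' processing notes), was 498 bp wide and reached into the RD29A locus (chr5:21240849-21243613). RD29B (chr5:21237056-21239529) had its own peak of 436 bp at chr5:21236730-21237165, which also lay within 1000 bp of AT5G52290, a gene too rarely listed to be tested. The RD29A peak also lay 918 bp above the upper end of RD29B, so that RD29B was counted with 2 peaks, a number reached by 2.35% of tested genes.

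KIN1 and KIN2 shared a single peak. It lay at chr5:5211437-5212122, was wider than 92.0% of the 4227 deposited peaks at 686 bp, and ran across the lower end of KIN2 (chr5:5211911-5212665). It was 710 bp above the upper end of KIN1 (chr5:5209898-5210727). KIN1 was thus near a peak by the 1000 bp rule and not at 500 bp. AT5G15980, which lies within 1000 bp of the same peak, had 21.2 ± 1.14 FPKM in the induced line and 19.2 ± 1.99 FPKM in brc1-2 (SD, n = 3 each; limma adjusted p = 0.364). The peak of COR413-PM1 (chr2:6950041-6951192) was 461 bp wide, at chr2:6949628-6950088, and had no other annotated locus within 1000 bp.

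**Figure D4:**
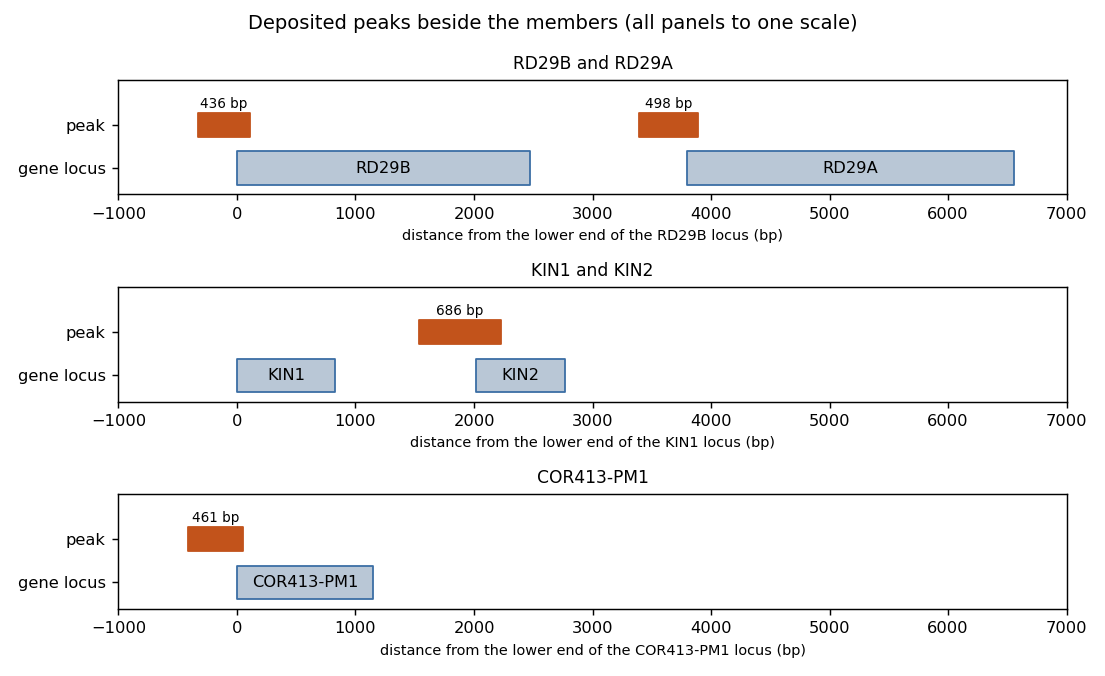
Gene loci (blue) and deposited peaks (orange, with their widths) in bp from the lower-coordinate end of the first locus in each panel, all panels to 1 scale. RD29A, RD29B, KIN2 and COR413-PM1 each have a peak across their lower end, and the peak beside KIN1 lies 710 bp from it at the end of KIN2.

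The midpoints of these 4 peaks lay below the lower end of the locus, by 153.5 bp for RD29A and 108.5 bp for RD29B. They lay 131.5 bp below it for KIN2 and 183 bp for COR413-PM1. A peak that crosses an end has its midpoint near that end, so this closeness follows largely from the choice of peaks. The other 5 genes had no peak within 3000 bp. The nearest peak was 4199 bp from ERD7, 17938 bp from RD22, 21561 bp from RD20, 21582 bp from ERD15 and 26613 bp from COR414-TM1. RD20, which rose, and COR414-TM1 and ERD15, which fell, were among these 5. The peak list gives positions of peaks shared by ChIP libraries 1 and 2 according to its name, with no height, so strength of binding could not be compared between genes. Peaks were counted for the listed genes in the same way. They lay beside 12 of the 16 other RD and ERD genes and 8 of the 11 promoter factors. Most of these 12 did not pass the test, ERD5 fell, and RD17, ERD9 and ERD10 rose. Of the 8 factors ABF3, CBF2 and DREB2B rose, and the others did not pass the test. Peaks also lay beside 4 of the 21 sequence relatives, PG2 and COR413-PM2 among them, and 1 of the 4 other cold-regulated and ABA-responsive genes. COR15A, which rose, had none. A peak lay this near 17.7% of tested genes and 13.1% of all annotated genes. Genes with adjacent identifiers, such as RD17 and ERD10 or CBF1, CBF2 and CBF3, were counted separately, whether or not they share a peak.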

How the data were processed

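For each RNA library the authors deposited FPKM values and their bounds in a table whose columns, per the file headers, are those of Cufflinks. TopHat, Bowtie, Cuffdiff, Bowtie2, MACS2 and the TAIR10 build are named in the submitters' processing notes, without versions or roles. Only rows for pieces assembled along single transcripts hold values above 0, and pieces of 1 gene were added; each of the 10 genes had at most 1 piece per library. A gene without a piece was taken as 0. Fragment numbers were derived from the width of the bounds. The deposited peak list, whose values are start and end positions (other units are not given), is the intersection of ChIP libraries 1 and 2 according to its name; ChIP library 3 and all Input libraries were not used here.

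Genes with at least 1 FPKM in at least 3 of the 6 libraries were tested on log2(FPKM + 1), with no covariates, by limma 3.58.1 in R 4.3.3 (lmFit, eBayes with trend). Fold changes on this scale understate the change of low genes. Voom, also from limma, was run on derived fragments with library totals as the scale. The fit was also run on simulated data with the same dispersion for all genes and both groups. The libraries here differ in spread between genes and between groups, so that run does not show how the fit behaves on them. Single values were compared by exact permutation with scipy 1.17.1 in Python 3.11.15. Gene symbols came from a RefSeq table of TAIR10.1, whose coordinates were not used; loci are those of the deposited tables, made 1-based. Named genes are the 10 members, BRC1, up to 4 called genes of largest change per list and genes sharing a peak with a member, plus those said to be chosen after their values were seen. Relatives of members that did not pass the test (CLO4, COR314-TM2, AT4G14270, AT2G23680, AT4G37220), COR15B, LTI30, MYC2 and MYB2 were also named outside that rule. The members and lists were chosen with earlier results of these data known. No promoter sequence was used here, so the planned motif counts were not run.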

Additional observations from a re-analysis of the deposited data

How the results depend on the processing

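Across 17 other fits (16 for KIN1, KIN2 and RD20, the last not tested at the filter of 5 FPKM), RD29A, KIN2 and COR413-PM1 kept their direction and their call in every fit run, and KIN1, RD22 and ERD7 stayed without one. Voom called 4449 genes in all. RD20 was not past the threshold at a pseudocount of 0.1 (log2 value 4.31, limma adjusted p = 0.0574), with the replicate block (2.12, limma adjusted p = 0.0607) or by voom on derived fragments (5.70, limma adjusted p = 0.0765). At a pseudocount of 5 the log2 values were 0.87 for RD20 and 1.05 for RD29B, both still called. COR414-TM1 lost its call with the replicate block (-0.42, limma adjusted p = 0.0641), and ERD15 with median scaling (-0.57, limma adjusted p = 0.052), so that 1 gene in place of 2 was called lower in each of these fits. The causes were not tested.

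Leaving out 1 library gave log2 values of 1.63 to 2.12 for RD29B, 1.91 to 2.55 for RD20, -0.49 to -0.37 for COR414-TM1 and -0.64 to -0.48 for ERD15. Of the 10 genes, 3 to 5 were called higher and 0 to 2 lower in these fits, with 3 higher without induced library 2 and none lower without any 1 library other than brc1-2 library 3. With fewer samples the test has less power. These fits tested 20706 to 20899 genes and called 1609 to 2827, in place of 3413 of 21038. Of all tested genes, 716 to 1354 were called higher and 893 to 1473 lower. The difference of the log2 ratio of KIN1 to KIN2 (-0.29) ran from -0.82 to 0.22, the last without brc1-2 library 1, and that of RD29A to RD29B from -1.18 to -0.41. Among other named genes RAB18 changed sign, with log2 values of -0.35 and -0.29 without brc1-2 libraries 2 and 3, against 0.22 with all libraries and 1.31 without brc1-2 library 1. With 1 library left out, 2 to 4 other RD and ERD genes were called higher and 1 to 4 lower, and 1 to 2 promoter factors were called higher and 0 to 1 lower. Over all fits 1 to 4 promoter factors were called higher.

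Nothing in the labels says whether same-numbered libraries were grown or prepared together. Their deviations from the group means correlated at 0.0824, 0.0597 and 0.193, and the replicate block lowered the calls over all genes to 2989. Whether they shared a batch was not tested. Counts of genes with a peak were 4 at 500 bp and from peak midpoints, and 5 at 3000 bp and with peaks of at least the median width. The planned count of promoter motifs was not run. Low depth limits RD20 and RD29B.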

Other observations

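Markers were also followed for seeds, guard cells and senescing leaves. Of 6 seed and embryo markers, CRU3, SESA1 and EM1 were not listed in any library, and the list summed to 1.33, 0 and 1.78 FPKM in induced libraries 1, 2 and 3 and to 5.32, 6.72 and 0 FPKM in brc1-2 libraries 1, 2 and 3. The 3 guard cell markers (GC1, MYB60 and FAMA) summed to 155, 166 and 187 FPKM in the induced libraries and to 197, 156 and 223 FPKM in brc1-2, and none of them passed the test in limma (median log2 fold change -0.23). GC1 made up most of that sum, with 151 ± 16.0 FPKM in the induced line and 169 ± 33.1 FPKM in brc1-2 (SD, n = 3 each). MYB60 and FAMA lay lower in every induced library than in any brc1-2 library, with log2 values of -0.36 (95% interval -0.60 to -0.12, limma adjusted p = 0.0587) and -0.23 (95% interval -0.40 to -0.07, limma adjusted p = 0.0726). Their part in the results for the 10 genes was not tested. Of the senescence markers SAG12 was not listed, and SAG13 had 0, 2.59 and 3.17 FPKM in the induced libraries and 2.21, 1.98 and 6.17 FPKM in brc1-2.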
